A study of Mus musculus with 16 samples.

Results

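The NR4A orphan nuclear receptors are 3 genes, Nr4a1 (also named Nur77), Nr4a2 (Nurr1) and Nr4a3 (Nor1), and all 3 were found by their symbols among the 23970 symbols of the expression table. They were followed in quadriceps RNA of 16-week-old male C57BL/6NTac wild type mice, 4 mice in each of 4 groups. CON-pre mice had been kept for 10 weeks on a control diet (CON) with 10% of its energy as fat, HFD-pre mice for as long on a diet with 60% (HFD), and neither took the exercise test. CON-post and HFD-post mice had been fed alike and were sampled 3 h after running on a treadmill to exhaustion. Per the study's methods, the mice of all 4 groups had a short, slow session on the treadmill on the day before and were fasted alike (3 h before the test), and the post mice were given no food between the test and sampling. Each mouse gave 1 library, so pre and post values come from different animals. Values are FPKM, fragment counts scaled for transcript length and library size, as estimated by the authors. Mice are the replicates, and p-values measure the spread between them. A bulk muscle sample cannot tell a change in the RNA of each cell from a change in the number of cells of a type.

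NR4A proteins are transcription factors that bind DNA through zinc fingers like other nuclear receptors, but their ligand-binding pocket is filled by bulky side chains and no classical hormone is needed for their activity. Their activity is therefore held to depend largely on their amount. They are early-response genes: in muscle, β-adrenergic signalling through cAMP, protein kinase A and the factor CREB, and calcium signals of contraction, are known to switch them on within hours, and the NR4A proteins in turn act on genes of glucose and lipid use.

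The promoters of the 3 genes shared one feature. The choice of the genes did not use it, but they were already known to be switched on through CREB. The cAMP response element (CRE), to which CREB binds, has the core TGACG, or CGTCA when read on the other strand. In the RefSeq sequences of the 250 bases before each gene start (build GRCm38.p6, 1 window a gene, 3 of 3 members matched), the core was found 4 times in each NR4A promoter. Of all 32851 RefSeq promoter windows of this length, 17.8% held the core at least once, 0.688% at least 3 times and 0.137%, which is 45 windows, at least 4 times. The core holds a CG, and G and C made up 74.4%, 80.0% and 63.6% of the Nr4a1, Nr4a2 and Nr4a3 windows. The windows behind these shares were not matched for G and C content. The full palindrome TGACGTCA, which would count as 2 cores, was in 1.55% of all windows and in none of the NR4A windows. The windows were located in mm9 by exact sequence, with 1 match each. They are shown because the position and spacing of the cores differ between the genes, and capitals mark the core on either strand.
Nr4a1, mm9 chr15:101097027-101097276, plus strand: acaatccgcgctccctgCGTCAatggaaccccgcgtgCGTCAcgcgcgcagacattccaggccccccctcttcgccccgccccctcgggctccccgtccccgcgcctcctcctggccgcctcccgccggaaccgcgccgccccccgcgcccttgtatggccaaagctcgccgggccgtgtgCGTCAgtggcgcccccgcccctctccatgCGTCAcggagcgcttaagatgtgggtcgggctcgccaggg
Nr4a2, mm9 chr2:56976415-56976664, minus strand: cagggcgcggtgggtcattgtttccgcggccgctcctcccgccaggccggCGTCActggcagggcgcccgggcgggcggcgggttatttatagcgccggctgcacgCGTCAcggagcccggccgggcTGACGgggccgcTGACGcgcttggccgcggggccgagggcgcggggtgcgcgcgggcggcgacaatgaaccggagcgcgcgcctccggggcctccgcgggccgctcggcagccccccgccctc
Nr4a3, mm9 chr4:48057927-48058024, plus strand: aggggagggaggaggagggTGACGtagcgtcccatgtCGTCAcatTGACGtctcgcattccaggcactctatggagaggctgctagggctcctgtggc
For Nr4a3 only the first 98 bases of the window are shown, because the bases after them lie inside the gene in the GENCODE M1 annotation, and 3 of its 4 cores are in the part shown. Counted back from the RefSeq start, the cores of Nr4a1 began at positions -233, -213, -69 and -40, those of Nr4a2 at -200, -144, -123 and -111, and those of Nr4a3 at -231, -213, -205 and -147. The first 3 cores of Nr4a3 thus lay close together and far from the RefSeq start, whereas those of Nr4a1 lay in 2 pairs, 1 of them near the start. The distance for Nr4a3 depends on the start used, because in GENCODE M1 the gene begins right after the 98 bases shown. A motif match is a description of the letters and no evidence of binding. The NR4A proteins' own site, the NBRE AAAGGTCA, was searched on both strands and was absent from all 3 windows (it was in 1.34% of all windows).

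In mm9 (GENCODE M1), Nr4a1 lies on chromosome 15 from 101097277 to 101105223 on the plus strand with 1 transcript, Nr4a2 on chromosome 2 from 56959241 to 56976414 on the minus strand with 6 transcripts, and Nr4a3 on chromosome 4 from 48058025 to 48099319 on the plus strand with 4 transcripts. The table gives 1 value per gene, so transcripts were not told apart. All 3 genes code for protein.

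At rest the family was almost entirely Nr4a1. Nr4a1 was at 34.2, 41.7, 29.1 and 62.4 FPKM in the 4 CON-pre libraries and at 34.4, 59.6, 45.9 and 36.9 FPKM in the 4 HFD-pre libraries. Nr4a3 was at 1.21, 1.71, 1.21 and 0.675 FPKM in CON-pre and at 0.282, 0.680, 0.210 and 0.561 FPKM in HFD-pre. Nr4a2, the member best known from dopamine neurons, was at 0.206, 0.388, 0.310 and 0.0936 FPKM in CON-pre and at 0.336, 0.360, 0.125 and 0.378 FPKM in HFD-pre. Nr4a1 thus made up 96.3% ± 1.73 (SD, n = 4) of the summed NR4A FPKM in CON-pre and 98.3% ± 0.723 (SD, n = 4) in HFD-pre. In both resting groups Nr4a1 ranked 2 among the 49 nuclear receptors in the table by mean FPKM, behind Nr1d1 (the clock repressor Rev-erbα), which was at 52.9 ± 11.1 FPKM in CON-pre and 51.2 ± 11.6 FPKM in HFD-pre (SD, n = 4). Nr4a3 ranked 29 in CON-pre and 31 in HFD-pre, and Nr4a2 ranked 32 in both. The CON-pre library with the highest Nr4a1 (62.4 FPKM) had the lowest Nr4a2 and Nr4a3 of its group.

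At 3 h after exercise the makeup of the family had changed through Nr4a3. Nr4a3 was at 19.0, 8.10, 16.8 and 11.1 FPKM in CON-post and at 9.45, 16.9, 14.2 and 15.5 FPKM in HFD-post. All 8 post libraries lay above all 8 pre libraries, with the lowest post value (8.10 FPKM) well above the highest pre value (1.71 FPKM). Nr4a1 was at 57.5, 41.9, 57.6 and 51.4 FPKM in CON-post and at 35.6, 60.5, 45.3 and 45.8 FPKM in HFD-post, within the range of the resting libraries. Nr4a2 was at 0.577, 0.368, 0.615 and 0.462 FPKM in CON-post and at 0.263, 0.735, 0.391 and 0.381 FPKM in HFD-post, which overlapped the resting values in both diets. The share of Nr4a3 in the summed NR4A FPKM went from 3.08% ± 1.36 to 20.2% ± 4.00 in CON and from 0.965% ± 0.439 to 22.8% ± 1.95 in HFD (SD, n = 4). The summed NR4A FPKM was 43.3 ± 14.3 before and 66.3 ± 12.3 after exercise in CON, and 45.0 ± 11.5 before and 61.2 ± 13.4 after it in HFD (SD, n = 4), and its pre and post values overlapped in both diets. No test was made of the sum or of the shares.

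**Figure D1:**
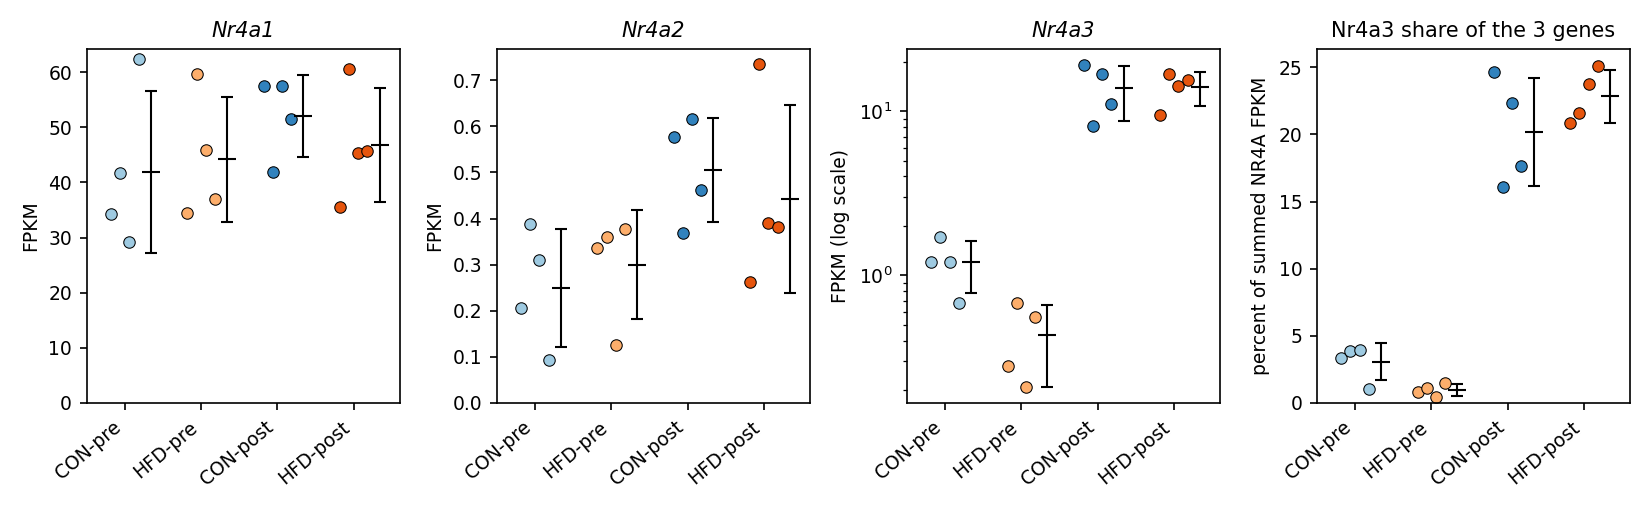
Expression of Nr4a1, Nr4a2 and Nr4a3 (FPKM; log scale for Nr4a3) and the share of Nr4a3 in the summed NR4A FPKM (percent) in the 16 libraries, with 4 points per group and the mean ± SD beside them. Nr4a3 lies between 8.10 and 19.0 FPKM in the post libraries and between 0.210 and 1.71 FPKM in the pre libraries, while the groups overlap for Nr4a1 and Nr4a2.

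The first question was whether exercise changed each member on either diet. Differences were tested with limma on log2(FPKM + 0.5) across all tested genes, with Benjamini-Hochberg adjustment, and a gene was said to have risen or fallen at an adjusted p under 0.05. The added 0.5 makes differences of low genes smaller than their ratios of FPKM. In CON mice Nr4a3 rose from 1.2 ± 0.423 to 13.7 ± 5.01 FPKM (SD, n = 4), a ratio of means of 11.4. Its log2 difference was 3.03 (SE 0.26, 95% confidence interval 2.48 to 3.58, limma adjusted p = 3.24e-05). In HFD mice Nr4a3 rose from 0.433 ± 0.224 to 14.01 ± 3.23 FPKM, a ratio of means of 32.4. Its log2 difference there was 3.96 (SE 0.26, 95% confidence interval 3.41 to 4.51, limma adjusted p = 6.13e-07). In both diets Nr4a3 had the smallest p of all 11256 genes tested, and it ranked 6 by the size of its log2 difference in CON and 2 in HFD. The share of tested genes called was 1.11% for CON-post against CON-pre (125 genes) and 0.542% for HFD-post against HFD-pre (61 genes). Genes whose FPKM did not overlap between the groups compared made up 5.82% of tested genes in CON and 6.81% in HFD. The exact two-sided permutation test of Nr4a3 alone gave p = 0.0286 in each diet, the smallest p that 4 libraries against 4 allow (12 such single-gene tests were made, and this p is unadjusted).

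Neither of the other members passed the test. For Nr4a1, from 41.9 ± 14.6 to 52.1 ± 7.39 FPKM in CON and from 44.2 ± 11.4 to 46.8 ± 10.3 FPKM in HFD (SD, n = 4), the log2 difference was 0.36 in CON (95% confidence interval -0.10 to 0.82, limma adjusted p = 0.581) and 0.09 in HFD (95% confidence interval -0.37 to 0.55, limma adjusted p = 0.914). In CON it was 0.57 without CON-pre replicate 4 (62.4 FPKM; limma adjusted p = 0.185) and 0.21 without CON-pre replicate 3 (29.1 FPKM; limma adjusted p = 0.812). A rise of Nr4a1 of the size seen for Nr4a3 lies outside these intervals in both diets. Nr4a2 had a mean under the 0.5 FPKM filter and was taken from the fit without the filter, over 17643 symbols, in which 0.612% of symbols were called for CON-post against CON-pre and 0.21% for HFD-post against HFD-pre. In CON it was at 0.249 ± 0.128 FPKM before and 0.506 ± 0.113 FPKM after exercise (SD, n = 4). Its log2 difference of 0.43 (95% confidence interval 0.09 to 0.78) had an unadjusted p of 0.0173 but an adjusted p of 0.366 by limma, and the exact permutation p was 0.0571. The ratio of means of Nr4a2 in CON was 2.03, and at so low a level the log2 difference depends on the pseudocount, being 0.86 with 0.1 and 0.27 with 1 (limma adjusted p = 0.400 and 0.359). In HFD, with 0.300 ± 0.118 FPKM before and 0.443 ± 0.204 FPKM after exercise, the log2 difference of Nr4a2 was 0.23 (limma adjusted p = 0.698).

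**Figure D2:**
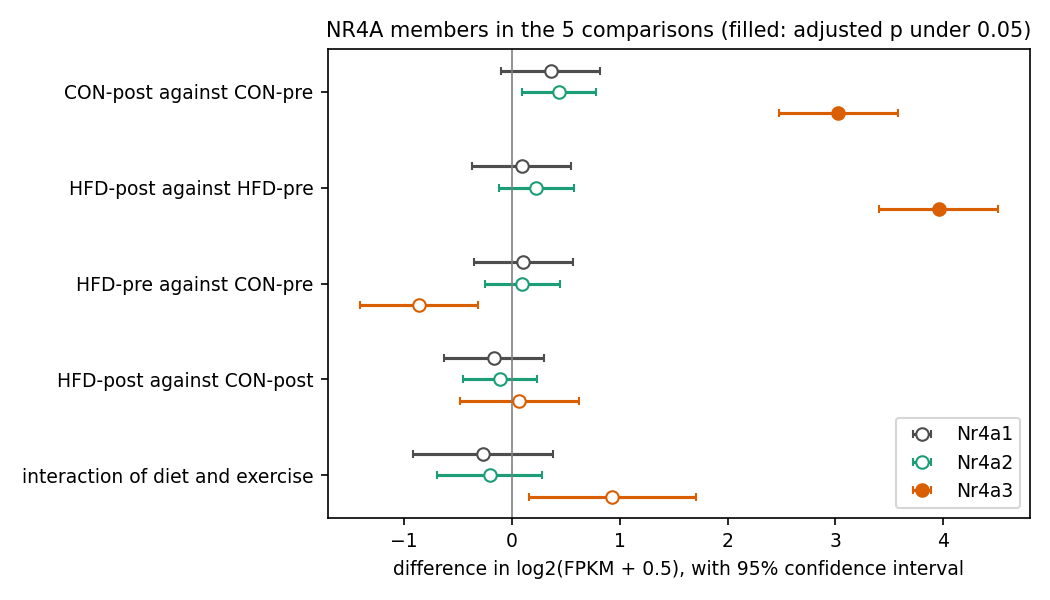
Differences in log2(FPKM + 0.5) of the 3 NR4A members in the 5 comparisons, as points with 95% confidence intervals from limma, filled where the adjusted p was under 0.05. Only the 2 exercise points of Nr4a3, at 3.03 and 3.96, are filled, and the interval of Nr4a3 also lies off 0 for HFD-pre against CON-pre and for the interaction, as does that of Nr4a2 for CON-post against CON-pre, where the adjusted p did not pass.

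The second question was whether the diet changed the members. At rest, Nr4a3 had a lower mean in HFD-pre (0.433 FPKM) than in CON-pre (1.2 FPKM), a ratio of means of 0.361, and the groups overlapped only because the lowest CON-pre library (0.675 FPKM) was just under the highest HFD-pre library (0.680 FPKM). The log2 difference was -0.86 (95% confidence interval -1.41 to -0.31). Its unadjusted p was 0.00426, but the limma adjusted p of 0.273 did not pass, and 174 tested genes had a smaller p. The exact permutation p was 0.0571. In this comparison 0.346% of tested genes were called with the filter, 0.215% of symbols without it, and 5.62% of tested genes did not overlap. The paper, which used the Cufflinks test, names Nr4a3 among the genes altered in HFD-pre muscle that exercise reverted, and reports qPCR for it. Muscle and adipocyte markers were also lower in sum in HFD-pre. The summed FPKM of 12 skeletal muscle markers, among them Ckm and Acta1, was 72020 to 78030 in CON-pre and 63280 to 68470 in HFD-pre. That of 6 adipocyte markers was 123 to 197 in CON-pre and 63.6 to 76.6 in HFD-pre. The adipocyte sum was lower mainly through Cfd, which fell from 105 to 27.4 FPKM, and Retn was at 12.95 and 8.05 FPKM. Lep rose from 0.515 to 4.53 FPKM, and Adipoq (17.4 and 18.3), Cidec (9.57 and 10.3) and Plin1 (3.99 and 3.62) did not pass. The part of these markers in the Nr4a3 values was not tested.

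The resting values of Nr4a3 rest on few fragments. Once the libraries' relative depths had been taken out, low FPKM of one gene were whole multiples of a step, which was read as 1 fragment, taking the largest step that made nearly all values whole. All 8 resting Nr4a3 values were whole to within 0.15 of such a step, with 21, 21, 21 and 13 steps in CON-pre and 4, 9, 3 and 11 steps in HFD-pre. The sums were 76 steps in CON-pre (95% Poisson interval 59.9 to 95.1) and 27 in HFD-pre (17.8 to 39.3), against 906 in CON-post and 872 in HFD-post. Nr4a2 values were 3 to 21 steps in all 16 libraries, 14 of them whole, with sums of 26 before and 56 after exercise in CON and of 31 before and 47 after it in HFD. These intervals cover counting error only. The step of Nr4a3 also gives the length that the FPKM were divided by, about 1.81 kb, which is shorter than the 5720 bases of its longest GENCODE M1 transcript, so the level of Nr4a3 relative to Nr4a1 depends on the gene model used. By the same kind of steps over all genes, the relative depth of the 16 libraries was 0.706 to 1.12.

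After exercise the diets did not differ detectably in any member. Nr4a3 was at 13.7 ± 5.01 FPKM in CON-post and 14.01 ± 3.23 FPKM in HFD-post (SD, n = 4). Its log2 difference was 0.07 with a 95% confidence interval of -0.48 to 0.62 (limma adjusted p = 0.997), a width that leaves room for a change of either sign. For HFD-post against CON-post, 0.151% of tested genes were called with the filter, 0.068% without it, and 3.16% did not overlap. The log2 difference of Nr4a1 was -0.17 (95% confidence interval -0.63 to 0.29, limma adjusted p = 0.987) and that of Nr4a2 was -0.11 (-0.45 to 0.24, limma adjusted p = 0.960). At rest it was 0.10 for Nr4a1 (-0.36 to 0.56, limma adjusted p = 0.952) and 0.10 for Nr4a2 (-0.25 to 0.44, limma adjusted p = 0.955).

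Whether the change with exercise itself depended on diet was asked with the interaction. For Nr4a3 the change was larger in HFD by 0.93 on the log2 scale (95% confidence interval 0.15 to 1.71), with an unadjusted p of 0.0218 and a limma adjusted p of 1.00 that did not pass. The interaction was 1.40 with a pseudocount of 0.1 and 0.68 with a pseudocount of 1 (unadjusted p of 0.00808 and 0.0511, limma adjusted p = 0.999 and 1.0). An unadjusted p under 0.05 was found for 3.16% of tested genes, and the adjusted p passed for 0% of genes, with the filter or without it. The interaction was -0.27 for Nr4a1 and -0.21 for Nr4a2 (limma adjusted p = 1.00 and 0.997). Of the 4 groups, ordered by mean FPKM of Nr4a3 as HFD-post, CON-post, CON-pre and HFD-pre, only the neighbours CON-post and CON-pre did not overlap. For Nr4a1 and Nr4a2 the order of means was CON-post, HFD-post, HFD-pre and CON-pre, and no neighbours in it differed beyond their spread (exact permutation p between 0.314 and 0.714, unadjusted).

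Among the 8 post libraries Nr4a1 and Nr4a2 varied together. The Pearson r of their log2(FPKM + 0.5) was 0.970 (exact permutation p = 7.44e-05, adjusted over 6 relations 0.000446) and Spearman's rho was 0.976 (exact permutation p = 0.000397). The highest Nr4a1 (60.5 FPKM, HFD-post) went with the highest Nr4a2 (0.735 FPKM) and the lowest Nr4a1 (35.6 FPKM, HFD-post) with the lowest Nr4a2 (0.263 FPKM). The CON-post library lowest in Nr4a1 (41.9 FPKM) was likewise the lowest of its group in Nr4a2 and in Nr4a3. Without the 2 libraries farthest from the median of Nr4a1, r was 0.971, and on deviations from the mean of each diet it was 0.971. None of the 11247 tested genes that varied in these libraries had a higher r with Nr4a1 than Nr4a2 did, and 6 had an r above 0.9. Nr4a2 rested on few fragments here, with 11 to 16 steps of low FPKM a library in CON-post and 8 to 21 in HFD-post. The part of counting error in its spread was not tested. The relation of Nr4a1 with Nr4a3 (r = 0.781, rho = 0.833, exact permutation p = 0.0246 and 0.0154, adjusted p of r 0.0737) and that of Nr4a2 with Nr4a3 (r = 0.725, rho = 0.810, exact permutation p = 0.0454 and 0.0218, adjusted p of r 0.0909) did not pass after adjustment, and without the 2 farthest libraries r was 0.708 and 0.637. In the 8 pre libraries r was -0.390 for Nr4a1 with Nr4a2, -0.218 for Nr4a1 with Nr4a3 and 0.311 for Nr4a2 with Nr4a3 (rho -0.167, -0.286 and 0.357; exact permutation p of r 0.332, 0.589 and 0.445). The difference between the pre and post relations was not tested.

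**Figure D3:**
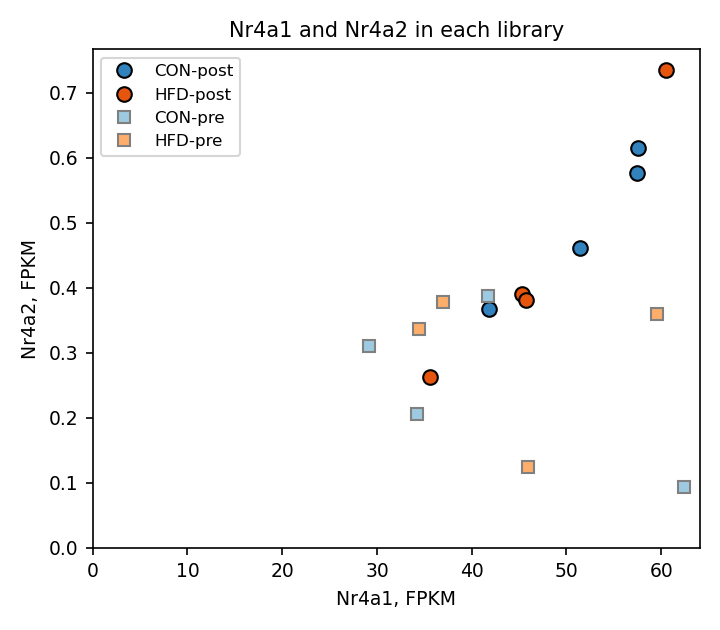
FPKM of Nr4a1 against FPKM of Nr4a2 in each of the 16 libraries, with circles for post and squares for pre libraries. The 8 post libraries lie along one rising line from 35.6 and 0.263 FPKM to 60.5 and 0.735 FPKM, and the 8 pre libraries do not.

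Set beside the rest of its protein family, Nr4a3 was the 1 receptor that passed the test for exercise. All 49 nuclear receptors of the list were in the table and 31 were tested. Nr4a3 rose in both diets and the other 30 did not pass in either exercise comparison, although with array weights Rarb passed as well in CON. In the diet comparisons and the interaction 0 of 31 passed by limma. At an unadjusted p under 0.05, Nr4a3 included, there were 5 receptors for exercise in CON, where 11.1% of all tested genes were under that limit, and 8 for exercise in HFD, where 11.7% were. There were 6 in HFD-pre against CON-pre (8.25% of all tested genes), 1 in HFD-post against CON-post (6.29%) and 2 for the interaction (3.16%). The 5 included Rarb, a retinoic acid receptor, at -0.58 in CON (limma adjusted p = 0.0845), and the 8 included Rora, a receptor of the circadian clock, at 0.41 in HFD (limma adjusted p = 0.134). The median log2 difference over the 31 was 0.04 in CON and 0.03 in HFD, against -0.01 and 0.04 over all genes tested. After Nr4a3, the largest difference in HFD was that of Nr1d1, at -1.12 (limma adjusted p = 0.240), and its value in CON was -0.64 (limma adjusted p = 0.554). By mean FPKM, Nr4a3 ranked 11 among the 49 in both post groups, and Nr4a1 ranked 1 in both.

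**Figure D4:**
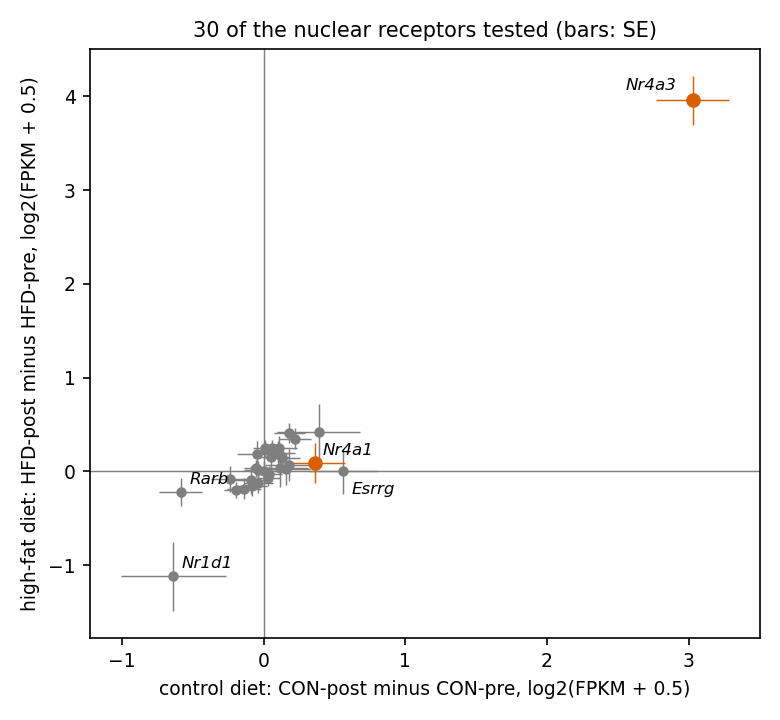
Log2 differences with exercise of 30 of the 31 tested nuclear receptors in CON mice (x axis) and HFD mice (y axis), with SE bars; the 2 tested NR4A members are orange and receptors over 0.5 in either diet are named. Nr4a3 sits at 3.03 and 3.96, far from Nr4a1 (0.36 and 0.09) and the other receptors plotted.

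Upstream of the family, the signalling list held 45 genes of the path from β-adrenergic receptors and calcium to CREB, its CRTC coactivators, MEF2 factors and class II histone deacetylases, of which 44 were tested. Sik1 was the 1 gene that passed, and it rose in both diets, while 15 of the 44 in CON and 6 in HFD had an unadjusted p under 0.05, against 11.1% and 11.7% of all tested genes. Sik1 encodes salt-inducible kinase 1, which holds CRTC coactivators out of the nucleus and is itself a CREB target. Sik1 was at 1.80 ± 0.167 FPKM in CON-pre and 5.14 ± 0.252 FPKM in CON-post (log2 difference 1.30, limma adjusted p = 6.51e-05), and at 1.67 ± 0.223 FPKM in HFD-pre and 4.15 ± 0.962 FPKM in HFD-post (1.08, limma adjusted p = 0.000825; SD, n = 4). None of the list passed in the diet comparisons or the interaction by limma, where 2, 7 and 1 genes had an unadjusted p under 0.05 at rest, after exercise and for the interaction (8.25%, 6.29% and 3.16% of all tested genes). RNA levels of these kinases and receptors do not measure their activity.

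Genes known to be switched on by CREB rose in part. Of 29 such genes 26 were tested, and 7 rose in CON and 3 in HFD, with none falling, where 1.11% and 0.542% of all tested genes were called. The median log2 difference was 0.49 in CON and 0.34 in HFD. Ppargc1a, which encodes the coactivator PGC-1α, a driver of mitochondrial biogenesis, went from 6.60 ± 0.364 to 28.3 ± 7.998 FPKM in CON (log2 difference 1.98, limma adjusted p = 4.38e-05), while in HFD it went from 4.70 ± 0.344 to 22.3 ± 5.40 FPKM (2.10, limma adjusted p = 2.87e-05; SD, n = 4). Atf3, a stress-induced repressor of the CREB family, went from 4.17 ± 1.48 to 39.5 ± 14.9 FPKM in CON (3.08, limma adjusted p = 0.000106), while in HFD it went from 5.69 ± 2.62 to 29.3 ± 12.8 FPKM (2.24, limma adjusted p = 0.00556). Fos and Egr1, immediate early transcription factors, rose in CON, with log2 differences of 1.79 (limma adjusted p = 0.00902) and 1.51 (limma adjusted p = 0.0455). In HFD the log2 difference was 0.36 for Fos (limma adjusted p = 0.722) and 1.26 for Egr1 (limma adjusted p = 0.143), neither of which passed. After exercise Fos was at 2.30 ± 1.16 FPKM in HFD and 6.64 ± 3.95 FPKM in CON, and the difference between the post groups did not pass for Fos (-1.25, limma adjusted p = 0.241) or Egr1 (-0.74, limma adjusted p = 0.793).

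The list of 30 immediate early genes, which shares Atf3, Fos, Egr1 and others with the list of CREB targets, had 25 members tested, of which 8 rose in CON and 5 in HFD and none fell, against the same shares of 1.11% and 0.542% called over all tested genes. Cyr61, a secreted matrix protein, rose by a log2 difference of 1.87 in CON (limma adjusted p = 4.96e-05) and 1.32 in HFD (limma adjusted p = 0.00342), and Btg2, an antiproliferative gene, by 1.55 (limma adjusted p = 6.77e-05) and 1.14 (limma adjusted p = 0.00377). Between the post groups, 23 of the 25 immediate early genes and 21 of the 26 CREB targets had lower means of log2(FPKM + 0.5) in HFD-post, with medians of -0.19 and -0.26 against 0.00 over all genes, while the value of Nr4a3 was 0.07. None of these genes passed in HFD-post against CON-post by limma, in which 4 immediate early genes and 9 CREB targets had an unadjusted p under 0.05, against 6.29% of all tested genes. Fos and Egr1 count in both lists. Of the 9 CREB targets, Amd1 was higher in HFD-post (12.03 ± 9.09 against 0.0383 ± 0.00409 FPKM, SD, n = 4), with a log2 difference of 3.68 (limma adjusted p = 0.274).

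In the promoter windows, the CRE core TGACG was present at least once in 17 of the 20 CREB targets that RefSeq matched and in 13 of 21 matched immediate early genes, against 19.8% of all 27025 genes. Among the 43 matched nuclear receptors, the NR4A members included, 13 held the core at least once and 4 at least 3 times. At least 3 cores were found in 3 of those 20 and in 1 of those 21, against 0.777% of all genes. These shares were likewise not matched for G and C content. CREB targets were listed for regulation by CREB, so the presence of the core among them is part of how the list was made.

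Downstream, the partners and coregulators of the NR4A proteins did not pass in any comparison. These 14 genes, among them the retinoid X receptors, with which Nr4a1 and Nr4a2 pair on DNA, had a median log2 difference of -0.05 in CON and 0.01 in HFD, and 1 gene had an unadjusted p under 0.05 in each exercise comparison (11.1% and 11.7% of all tested genes). Of 9 genes of glucose use known as NR4A targets in muscle, among them the glucose transporter Slc2a4 and the glycogen phosphorylase Pygm, 0 passed by limma in any comparison. Their medians were -0.04 in CON and -0.05 in HFD, and unadjusted p under 0.05 were found for 1 gene in CON, 2 in HFD, 2 for diet at rest and 2 for diet after exercise, where the shares of all tested genes were 11.1%, 11.7%, 8.25% and 6.29%. Of 10 lipid and energy genes linked to NR4A, 3 rose and 1 fell in CON, and 1 fell in HFD (1.11% and 0.542% of all tested genes called in either direction). Pdk4, the kinase that turns off pyruvate dehydrogenase, went from 207 ± 66.5 to 518 ± 36.3 FPKM in CON (log2 difference 1.38, limma adjusted p = 0.0021; SD, n = 4), Ucp3, a mitochondrial carrier of muscle, rose by 0.87 (limma adjusted p = 0.00878) and Lpin1, a phosphatidate phosphatase, by 0.50 (limma adjusted p = 0.00344). Prkag3, the muscle γ subunit of AMP-activated protein kinase, fell by 0.68 on the log2 scale in CON (limma adjusted p = 0.00262) and by 0.53 in HFD (limma adjusted p = 0.0347). Cd36, a fatty acid transporter, was the 1 gene of this list called for diet, at rest (0.346% of all tested genes called), with 65.4 ± 10.1 FPKM in CON-pre and 102 ± 17.2 FPKM in HFD-pre (0.64, limma adjusted p = 0.0229). The NBRE was in none of the 8 matched glucose and 8 matched lipid promoters.

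The genes whose pattern over the 16 libraries was most like that of Nr4a3, by Pearson r of log2(FPKM + 0.5), were Ppargc1a (0.975), Hk2 (0.974), Sik1 (0.945), Pdxk (0.944) and Btg2 (0.942). Hk2 encodes hexokinase 2, which traps glucose in muscle, and Pdxk encodes pyridoxal kinase of vitamin B6 metabolism. These r mostly express the step from pre to post, and on deviations from the group means they were 0.662, 0.626, 0.457, 0.5 and 0.755. Hk2 went from 52.9 to 111 FPKM in CON and from 48.6 to 109 FPKM in HFD, and Pdxk from 2.29 to 4.11 FPKM in CON and from 1.91 to 3.92 FPKM in HFD, and both rose in both diets. For Nr4a2 the highest were Clic4 (0.871), Daam1 (0.866), Ankrd1 (0.843), Xirp1 (0.834) and Rnf115 (0.834), of which Ankrd1 and Xirp1 encode stretch- or injury-responsive muscle proteins, and their r on deviations from the group means were 0.712 to 0.887. Xirp1 rose in both diets and Rnf115 in CON, and the other 3 did not pass in either diet. For Nr4a1 they were Nbas (0.779), Slc7a8 (0.714), Adhfe1 (0.710), Ypel3 (0.707) and Bud13 (0.705). None of these 5 passed the test for exercise in either diet. No gene was in more than 1 of the 3 sets.

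**Figure D5:**
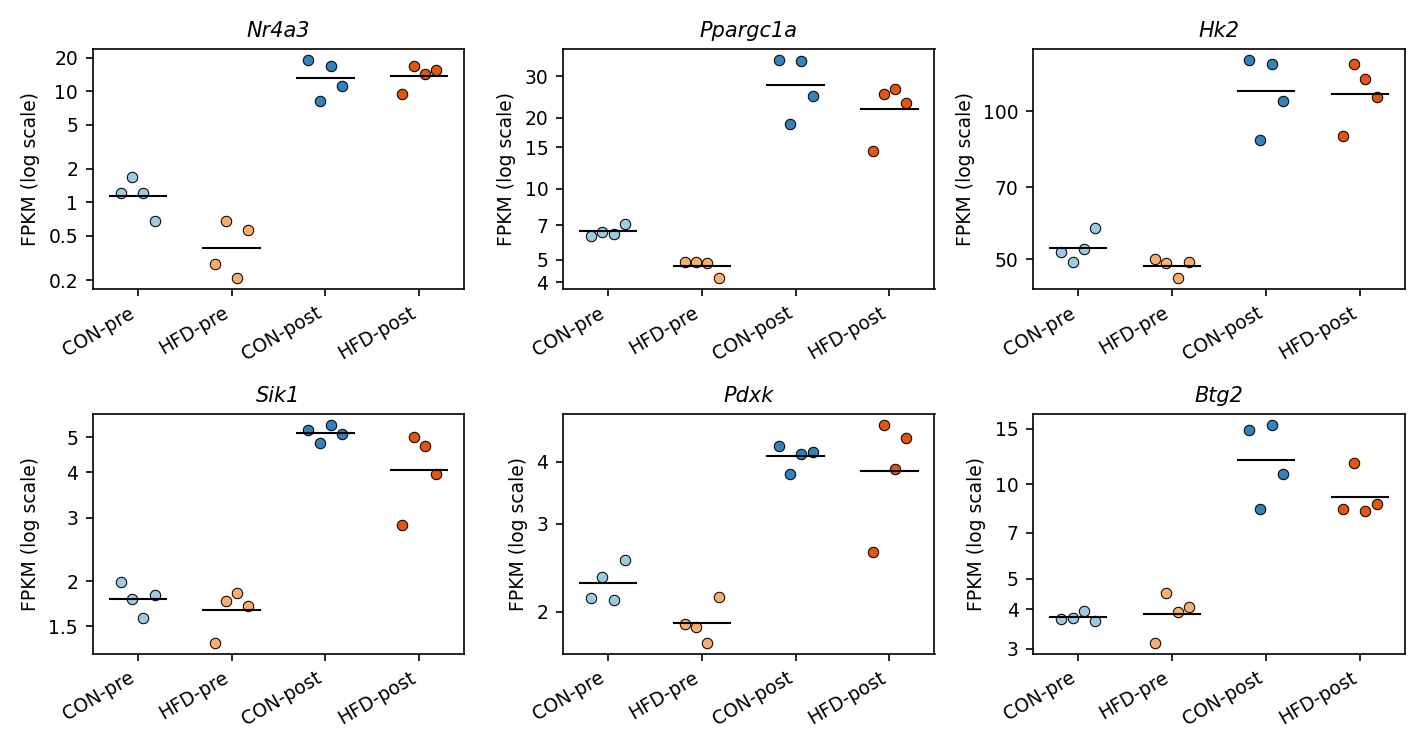
FPKM (log scale) of Nr4a3 and the 5 genes most like it over the 16 libraries, with points for libraries and lines for the geometric mean of each group. In all 6 genes the 8 post libraries lie above the 8 pre libraries, with the lowest post and highest pre library at 8.10 and 1.71 FPKM for Nr4a3 and at 87.5 and 57.8 FPKM for Hk2.

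None of the tested genes beside the NR4A loci passed the test for exercise. On the lower-coordinate side of Nr4a3 in mm9, Sec61b, a subunit of the protein translocation channel, lay 561911 bases away and had log2 differences of -0.17 in CON and -0.11 in HFD, and on the other side Stx17, a syntaxin of autophagosomes, lay 38468 bases away with -0.07 and 0.14 (limma adjusted p between 0.519 and 0.879 for both genes). Beside Nr4a1, Grasp was 34091 bases away with -0.10 and 0.02 (limma adjusted p = 0.892 and 0.976), and 6030408B16Rik was at most 0.203 FPKM in every library. Beside Nr4a2, Kcnj3 was at most 0.278 FPKM and BB557941 was listed at 0 in every library.

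Muscle markers were abundant in every library, with Ckm at 10050 to 14320 FPKM. The summed skeletal muscle markers had lower medians after exercise, at 62260 to 72400 FPKM in CON-post against 72020 to 78030 FPKM in CON-pre, and at 56330 to 67390 FPKM in HFD-post against 63280 to 68470 FPKM in HFD-pre. Summed smooth muscle markers were at 25.7 to 33.4 FPKM in CON-pre and 32.6 to 44.0 FPKM in CON-post, and at 30.5 to 36.9 FPKM in HFD-pre and 31.3 to 45.5 FPKM in HFD-post. These ranges overlap, none of the genes behind them passed the test for exercise, and their part in the NR4A values was not tested. Of 11 marker lists, the exercise comparisons held 1 called gene, where 1.11% of all tested genes were called in CON and 0.542% in HFD. This was the endothelial marker Pecam1, which rose by a log2 difference of 0.39 in HFD (limma adjusted p = 0.0347), while the other endothelial markers did not pass. Endothelial sums overlapped, at 48.4 to 61.3 FPKM in CON-pre and 55.7 to 71.2 in CON-post, and at 52.7 to 66.7 in HFD-pre and 57.8 to 64.7 in HFD-post. Macrophage markers (6 of 7 in the table) summed to 59.6 to 107 FPKM in CON-pre, 54.1 to 73.0 in HFD-pre, 49.1 to 121 in CON-post and 45.0 to 91.0 in HFD-post. Neutrophil markers (3 of 4 in the table, mainly S100a8 and S100a9) summed to 6.34 to 58.1 FPKM in CON-pre, 1.55 to 78.3 in HFD-pre, 1.67 to 17.0 in CON-post and 0.908 to 128 in HFD-post. T cell markers summed to at most 0.324 FPKM in any library.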

How the data were processed

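RNA of 16 quadriceps samples was sequenced by the authors from stranded mRNA libraries, aligned with TopHat to mm9 and quantified with Cufflinks, per the Methods and the submitters' processing notes, which give no versions. The authors deposited FPKM, which carry a scaling for length and depth, so no count test was used. Of 24487 entries, 27 named by dates or numbers (0.0771% of FPKM) were left out and 260 repeated symbols summed, leaving 23970 symbols. Columns of sample values left unused numbered 0. FPKM summed to 283600 to 329300 per library, 29.2 to 36.5% of it in 10 genes, and relative depth read from steps of values under 0.1 FPKM was 0.706 to 1.12. Intervals from these steps cover counting error only.

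limma 3.58.1 (R 4.3.3) was fitted with a trend to log2(FPKM + 0.5) of the 11256 genes that averaged 0.5 FPKM or more, with all 4 groups and no covariates, and was tested on simulated data. Exact permutation tests used scipy 1.17.1. The members and gene lists were chosen with earlier results of these data known. Genes named are the members, up to 4 called genes per list with the largest exercise difference and up to 2 for diet, called nuclear receptors, the 5 most similar genes per member and listed neighbours; Nr1d1, Rarb, Rora and marker genes were named after their values were seen. Exact tests planned for the summed FPKM and the shares were not made. The values of 1 nuclear receptor are not reported here. Promoters are from RefSeq GRCm38.p6. The gene models behind the table are not given in the sources used here.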

Additional observations from a re-analysis of the deposited data

Results flagged for a closer look

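In 28 groups of 4 libraries (each member's FPKM and share and the summed NR4A FPKM, in each group), 1 library stood far from its group by Dixon's criterion at the 95% level, which chance alone would meet in about 1 in 20 groups. This was Nr4a2 in HFD-pre replicate 3, at 0.125 FPKM, where the other 3 libraries were at 0.336, 0.360 and 0.378 FPKM. The gap to the nearest library was 0.833 of the range of the group. The value stood for 3 steps of low FPKM, against 8, 8 and 12 steps in the other libraries. Without this library the log2 difference of Nr4a2 between HFD-post and HFD-pre was 0.11 (limma adjusted p = 0.895), against 0.23 with it.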

How the results depend on the processing

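The 15 log2 differences of the members were recomputed under up to 11 other settings and with each of 16 libraries left out, which gave 392 values. Of these, 384 kept direction and side of the threshold. The rise of Nr4a3 ranged from 2.70 to 3.397 in CON (limma adjusted p at most 0.00324) and from 3.37 to 4.795 in HFD (at most 7.29e-05). The lower resting Nr4a3 in HFD ranged from -1.33 (pseudocount 0.1) to -0.61 (pseudocount 1), with adjusted p from 0.0924 (array weights) to 0.523, and it did not pass in any. The 8 reversals were all of differences near 0 with a library left out, for which the lowest and highest values were -0.0495 and 0.313 for Nr4a1 between HFD-pre and CON-pre (also -0.0486), -0.042 and 0.242 for Nr4a1 between HFD-post and HFD-pre (also -0.0185), -0.00932 and 0.211 for Nr4a2 between HFD-pre and CON-pre, and -0.149 and 0.244 for Nr4a3 between HFD-post and CON-post (also -0.0288 and -0.00468). With array weights 2 nuclear receptors were called for exercise in CON, Nr4a3 and Rarb (-0.64, adjusted p = 0.0462), and 1 was called for diet at rest. The cause was not tested. In alternatives chosen after seeing the data, the r of Nr4a1 with Nr4a2 in post libraries was 0.961 to 0.982. Same-numbered libraries of compared groups correlated at -0.22 to 0.213 in their deviations. This r was above that with any other number for replicate 3 in each exercise comparison. In the diet comparisons it was so for replicates 1 and 2 at rest and for replicates 1, 2 and 4 after exercise, and not for the rest. Whether a number stands for a shared batch was not tested. The replicate block left the Nr4a3 differences at 3.03 in CON (adjusted p = 0.000412) and 3.96 in HFD (adjusted p = 3.49e-05). It changed no call of a member. Nr4a2 could not be given under the filter at 1 FPKM and has no filter to drop, and fits of 2 groups give no interaction. Over all genes, calls ranged from 72 to 187 for exercise in CON (125 in the report), 21 to 78 for exercise in HFD (61), 21 to 63 for diet at rest (39), 2 to 19 for diet after exercise (17) and 0 to 1 for the interaction (0). Depth limits Nr4a2 and resting Nr4a3, which rest on 3 to 21 steps of low FPKM a library.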
